A study of Mus musculus with 8 samples.

Results

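The genes described here are the 10 core genes of the circadian clock, namely the period genes *Per1*, *Per2* and *Per3*, the cryptochrome genes *Cry1* and *Cry2*, the activator genes *Arntl* (BMAL1) and *Clock*, the nuclear receptor genes *Nr1d1* and *Nr1d2* (REV-ERBα and REV-ERBβ) and the output gene *Dbp*. They were chosen by name, all 10 were found in the deposited table of 50686 genes, and all 10 were among the 16018 genes with enough reads to be tested. The tissue was ventral hippocampus from 8 male mice aged 8 weeks, of the strain C57BL/6J (C57B6/J in the labels), which were killed 3 h after a morning injection and from which mRNA was sequenced. Of these, 4 mice had received vehicle (libraries 1 to 4) and 4 had received corticosterone, the main glucocorticoid (GC) of rodents, at 3 mg/kg (libraries 5 to 8). All mice were group-housed by 4 under light and dark phases of equal length, and the paper does not say which mice shared a cage. No genetic change or removal of the adrenals is described for either group, and each library came from 1 mouse. There was a single time of day, so that the level of a clock gene was measured here and not its rhythm.

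In the molecular clock, BMAL1 and CLOCK form a pair that binds the E-box and switches on the period and cryptochrome genes, whose proteins return to the nucleus and inhibit that same pair. A second loop runs through REV-ERBα and REV-ERBβ, which repress *Arntl*, while the DBP protein acts on D-boxes in clock and output genes. The hippocampus carries such a clock below the central pacemaker of the suprachiasmatic nucleus, and the daily rhythm of GCs is known as a signal that sets the clocks of tissues. *Per1* is a textbook target of the GC receptor and is often used as a readout of GC action, which is the question that the comparison of corticosterone with vehicle addresses for this family.

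The letters of these elements were searched in front of the genes. RefSeq promoters on GRCm38.p6 were given for 9 of the 10 genes, in 13 entries, and *Per2* had none. The 3 stretches below are printed because they were the entries in which an E-box or a D-box was found in the 250 bases before the start. They are shown 5′ to 3′ on the strand of the gene and without bases that GENCODE M21 places in an exon, and capitals mark the motif.
Per1, chr11:69098699-69098947, plus strand, E-box beginning 166 bases before the start, within the span of the gene and between annotated exons: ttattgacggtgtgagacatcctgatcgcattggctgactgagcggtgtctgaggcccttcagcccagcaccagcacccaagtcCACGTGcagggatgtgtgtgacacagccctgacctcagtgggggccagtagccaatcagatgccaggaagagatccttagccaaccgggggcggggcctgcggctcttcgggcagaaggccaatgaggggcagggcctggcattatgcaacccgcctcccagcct
Cry1, chr10:85185065-85185304, minus strand, E-box beginning 60 bases before the start, upstream of the gene: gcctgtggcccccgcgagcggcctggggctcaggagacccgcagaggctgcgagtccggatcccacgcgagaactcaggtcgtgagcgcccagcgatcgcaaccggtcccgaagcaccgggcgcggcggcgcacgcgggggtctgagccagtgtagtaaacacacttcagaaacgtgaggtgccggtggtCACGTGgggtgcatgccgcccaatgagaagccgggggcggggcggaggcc
Per3, chr4:151044666-151044915, minus strand, D-boxes beginning 205 and 158 bases before the start, upstream of the gene: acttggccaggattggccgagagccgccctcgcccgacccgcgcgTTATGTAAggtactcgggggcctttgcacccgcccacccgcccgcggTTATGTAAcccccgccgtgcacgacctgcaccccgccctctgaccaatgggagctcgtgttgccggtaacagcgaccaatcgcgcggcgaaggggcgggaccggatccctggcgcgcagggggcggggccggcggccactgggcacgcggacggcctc

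The E-box was searched as CACGTG and the D-box as TTATGTAA or TTACGTAA, on both strands. Of 32851 RefSeq promoters of the same length, 6.02% held this E-box and 0.931% held this D-box. The letters of a GC response element (GNACANNNTGTNC, in 0.387% of promoters), of a cAMP response element (TGACGTCA, in 1.55%) and of the RORE bound by REV-ERB and ROR proteins (in 0.332%) were not found in the windows of the 9 genes. A match is a description of letters and not a binding site, and a missing match says only that these letters are not in this window.

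In the edgeR fit with all 8 libraries, the 1 gene called among all genes tested, *Fkbp5*, was also the check of the hormone. This single call belongs to that fit. Without corticosterone 5, in a fit described below, 10.2% of all genes had an adjusted p under 0.05. The paper, with its own DESeq2 analysis of these mice, reports a longer list of responsive genes. *Fkbp5*, the co-chaperone of the GC receptor and a standard readout of GC exposure, had 2373, 1765, 1983 and 1709 normalized counts in the vehicle libraries. It had 3186, 3510.5, 3364 and 3177 in the corticosterone libraries, all above the highest vehicle library. The log2 fold change was 0.76 (SE 0.0968, adjusted p = 0.0481, edgeR quasi-likelihood test, adjusted by Benjamini-Hochberg over 16018 genes). This call lay close to the threshold and was lost with at least 10 counts asked of every library (adjusted p = 0.053) and without any 1 of the libraries vehicle 2, 3 and 4 and corticosterone 6, 7 and 8 (adjusted p between 0.142 and 0.331, edgeR), where the log2 fold change was between 0.69 and 0.77. The adjusted p was 1.46e-08 in DESeq2, 1.8e-06 with no filter on low counts, 0.00224 without vehicle 1, 0.00508 without corticosterone 5, and between 0.00386 and 0.0485 in the other 5 settings. Normalized counts here are reads scaled for library size with the TMM method of edgeR, and all fold changes are corticosterone minus vehicle on the log2 scale.

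None of the 10 core clock genes passed the threshold of an adjusted p of 0.05 in edgeR, and the smallest adjusted p among them was 0.628. Among all genes tested, 1 passed, which is 0.00624%. At an unadjusted p under 0.05, 0 of the 10 clock genes were found, against 9.03% of all genes. Vehicle and corticosterone values overlapped for each of the 10, whereas they did not overlap in 3.66% of all genes. The log2 fold change was above 0 in 6 and below 0 in 4 of them. Their median was 0.04, beside a median of 0.00 over all genes. The 95% intervals of the 10 genes together ran from -0.51 to 0.41, which corresponds to between 0.703 and 1.33 times the vehicle level. These ends came from *Dbp* and *Nr1d2*, and the intervals of the other 8 genes, given with each gene, were narrower.

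**Figure D1:**
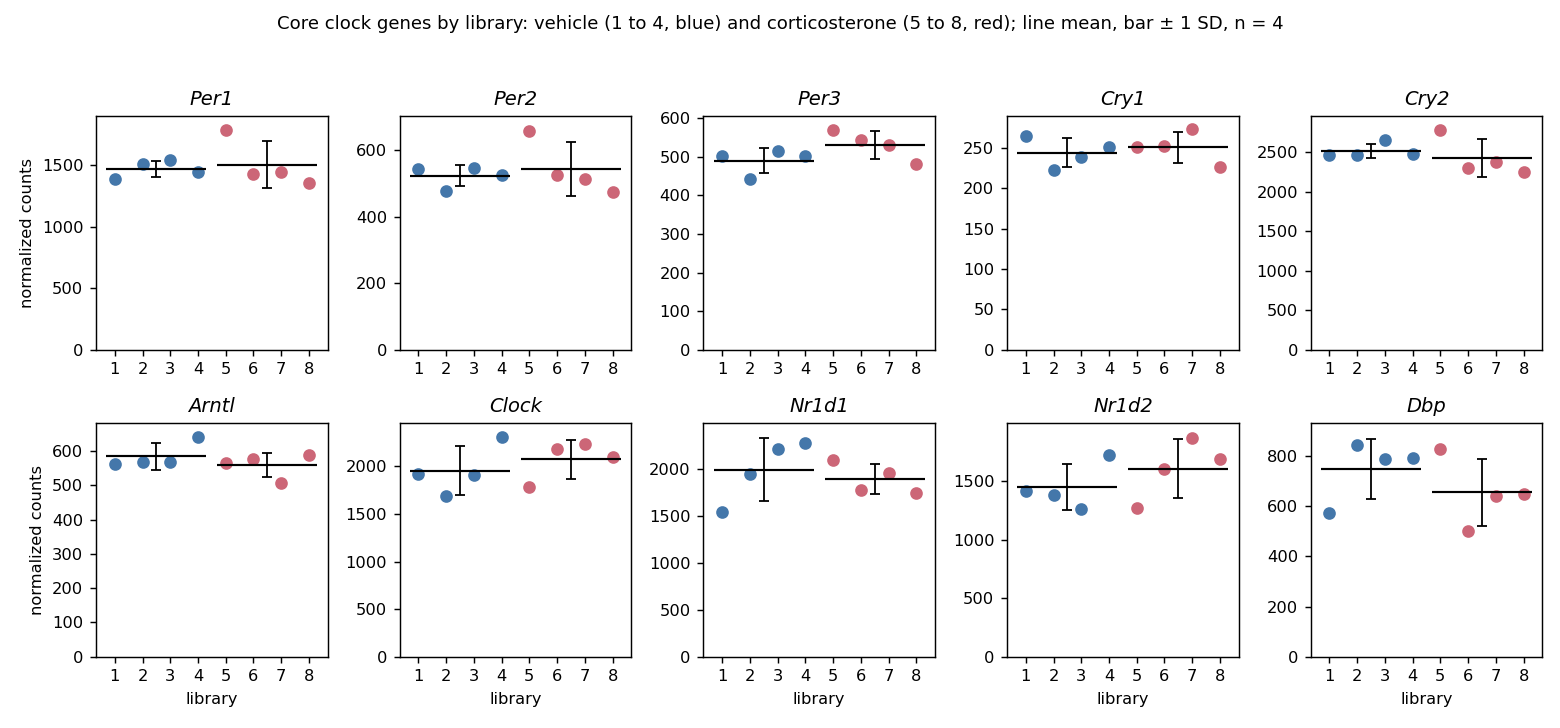
Normalized counts of the 10 core clock genes (y axis, from 0) in each library (x axis), with vehicle in blue, corticosterone in red, the group mean as a line and ± 1 SD as a bar (n = 4). The groups overlap in all 10 panels, and corticosterone 5 is the highest red point for *Per1*, *Per2*, *Per3*, *Cry2*, *Nr1d1* and *Dbp* and the lowest for *Clock* and *Nr1d2*.

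Of the activators, *Arntl* (ENSMUSG00000055116, chromosome 7 from 113207465 to 113314126), which encodes BMAL1, had 562, 567, 566 and 642 normalized counts in the vehicle mice. The corticosterone mice had 564, 576, 508 and 588. Apart from vehicle 4 at the top and corticosterone 7 at the bottom, the other 6 libraries lay between 562 and 588. The log2 fold change was -0.06 (SE 0.0835, 95% interval -0.24 to 0.12, adjusted p = 0.776, edgeR).
*Clock* (ENSMUSG00000029238, chromosome 5 from 76209868 to 76304792), the other activator and a histone acetyltransferase, had 1917, 1687, 1912 and 2305 in the vehicle mice. The corticosterone mice had 1782, 2184, 2234 and 2101. The lowest and the highest value of all 8 were both in vehicle mice. This gave a log2 fold change of 0.09 (SE 0.0994, 95% interval -0.13 to 0.30, adjusted p = 0.742, edgeR).

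*Per1* (ENSMUSG00000020893, chromosome 11 from 69095217 to 69109960), a period gene that is quickly induced by hormonal signals, had 1389.7, 1508, 1543 and 1442 normalized counts after vehicle. After corticosterone it had 1787, 1429, 1447 and 1360.2. Corticosterone 5 was the highest of all 8 and corticosterone 8 the lowest, and the other 2 corticosterone mice lay within the vehicle range. The mean was 1471 (SD 68.2, n = 4) in vehicle and 1506 (SD 191, n = 4) in corticosterone mice, a log2 fold change of 0.03 with a 95% interval from -0.16 to 0.22 (SE 0.0875, adjusted p = 0.893, edgeR).

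*Per2* (ENSMUSG00000055866, chromosome 1 from 91415982 to 91459324), a core repressor of the loop, had 543, 479, 547 and 526 normalized counts after vehicle. It had 659.9, 525, 514 and 475 after corticosterone, again with corticosterone 5 at the top and corticosterone 8 at the bottom of all 8. Its log2 fold change was 0.05 (SE 0.105, 95% interval -0.17 to 0.28, adjusted p = 0.854, edgeR). *Per3* (ENSMUSG00000028957, chromosome 4 from 151003652 to 151044665), the period gene least needed for the rhythm, had 501, 443, 515 and 502 after vehicle. After corticosterone it had 570.2, 542, 531 and 482, so that 3 corticosterone mice lay above the highest vehicle mouse and corticosterone 8 fell among them. Its log2 fold change was 0.12 (SE 0.0866, 95% interval -0.07 to 0.30, adjusted p = 0.628, edgeR), the smallest adjusted p of the 10 genes.

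Of the cryptochromes, the strongest repressors of BMAL1 and CLOCK, *Cry1* (ENSMUSG00000020038, chromosome 10 from 85131700 to 85185064) had 265, 222, 239 and 251 normalized counts after vehicle. It had 251, 253, 273 and 226 after corticosterone, and the groups covered nearly the same range. The log2 fold change was 0.04 (SE 0.102, 95% interval -0.18 to 0.26, adjusted p = 0.898, edgeR). *Cry2* (ENSMUSG00000068742, chromosome 2 from 92403646 to 92434043) had 2471, 2461.5, 2655 and 2478 after vehicle, a narrow group with vehicle 3 apart. After corticosterone it had 2789, 2298, 2373 and 2256. Corticosterone 5 stood above every vehicle mouse and the other 3 stood below every vehicle mouse. Its log2 fold change came to -0.05 (SE 0.0772, 95% interval -0.22 to 0.12, adjusted p = 0.806, edgeR).

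The REV-ERB receptors bind heme and repress transcription. *Nr1d1* (ENSMUSG00000020889, chromosome 11 from 98767932 to 98775333) had 1535, 1942, 2209.6 and 2272 normalized counts after vehicle. It had 2091, 1772, 1949.6 and 1745 after corticosterone, a range that lay inside that of the vehicle mice. For *Nr1d1* this was a log2 fold change of -0.07 (SE 0.112, 95% interval -0.32 to 0.17, adjusted p = 0.803, edgeR). *Nr1d2* (ENSMUSG00000021775, chromosome 14 from 18204054 to 18239127) had 1413, 1383, 1261 and 1724 after vehicle and 1267, 1598, 1867 and 1688 after corticosterone. Vehicle 4 reached the level of corticosterone 6 to 8, and corticosterone 5 fell to the bottom of the vehicle mice. For *Nr1d2* this was a log2 fold change of 0.15 (SE 0.119, 95% interval -0.11 to 0.41, adjusted p = 0.642, edgeR), the largest positive value of the 10.

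*Dbp* (ENSMUSG00000059824, chromosome 7 from 45705088 to 45710203), the PAR-bZIP factor that carries the rhythm to output genes, had 574, 841, 786 and 791 normalized counts after vehicle. It had 829, 501, 641 and 646 after corticosterone. Vehicle 1 was the lowest of its group and corticosterone 5 the highest of its own, above 3 of the 4 vehicle mice. The log2 fold change was -0.19 (SE 0.146, 95% interval -0.51 to 0.12, adjusted p = 0.634, edgeR), the largest negative value and the widest interval of the 10. *Dbp* shares 539 bases (18%) of its exons with *Sphk2*, and *Nr1d1* shares 263 bases (8.55%) with *Thra*, both on the opposite strand. The libraries were stranded, but the strand setting of the counting is not given in the sources used here. If strand was ignored, reads from the shared bases fit more than 1 gene and may be missing from these counts. *Cry2* shares 295 bases (4.67%) with *D930015M05Rik* and *Arntl* 33 bases (0.439%) with *Gm45355* in the same way.

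**Figure D2:**
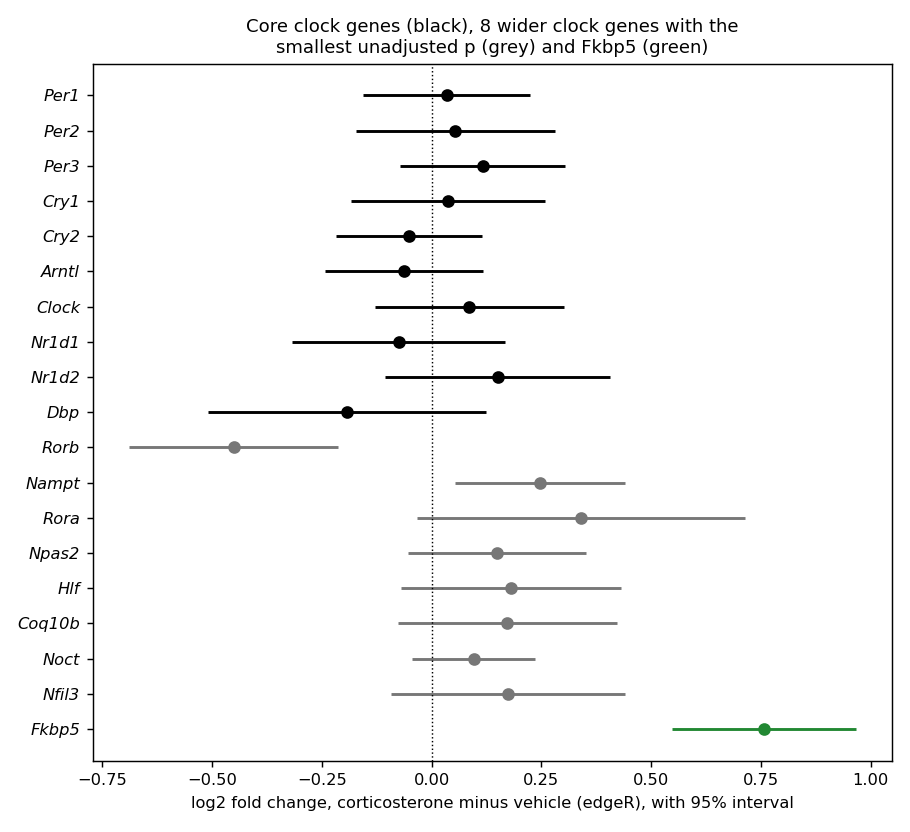
Log2 fold change of corticosterone minus vehicle (x axis, points) with its 95% interval (lines) from edgeR, for the 10 core clock genes in black, 8 genes of the wider clock in grey and *Fkbp5* in green. All 10 black intervals cross 0 and end at 0.41 or below, while that of *Fkbp5* runs from 0.55 to 0.97.

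The wider clock was described with a list of 31 further genes, made of partner and competitor factors, kinases, ubiquitin ligases and output genes. None passed the adjusted threshold, with a smallest adjusted p of 0.288. At an unadjusted p under 0.05, 1 of the 31 was higher and 1 was lower after corticosterone, against 9.03% of all genes in either direction. Of the 31, 18 had a log2 fold change above 0 and 13 below, with a median of 0.04. The receptor gene *Rorb*, whose protein binds the same element as REV-ERB and activates from it, had 223, 230.2, 231 and 282 normalized counts after vehicle and 178, 186, 178 and 166 after corticosterone. It was the 1 gene of the 31 whose groups did not overlap, which is near the 3.66% of all genes. Its log2 fold change was -0.45 (SE 0.110, unadjusted p = 0.0013, adjusted p = 0.288, edgeR).

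*Rora*, the related activator, pointed the other way, with a log2 fold change of 0.34 (95% interval -0.03 to 0.71, adjusted p = 0.545, edgeR). It had 862, 840, 603 and 728 normalized counts after vehicle and 667, 1122, 1236 and 819 after corticosterone, with corticosterone 5 and 8 inside the vehicle range. *Nampt*, which encodes the rate-limiting enzyme of NAD+ salvage and is an output of the clock, had 1367, 1159.7, 1264 and 1333 after vehicle and 1271, 1552, 1622 and 1634 after corticosterone. Corticosterone 6 to 8 were above every vehicle mouse and corticosterone 5 was among them, a log2 fold change of 0.25 (SE 0.0895, unadjusted p = 0.0165, adjusted p = 0.499, edgeR). The other 5 genes with the smallest p of this list had log2 fold changes between 0.10 and 0.18, none with an unadjusted p under 0.05. They were *Npas2*, the neuronal partner of BMAL1 (0.15), the PAR-bZIP gene *Hlf* (0.18), the output genes *Coq10b* (0.17) and *Noct*, a phosphatase of NADP(H) (0.10), and *Nfil3*, the repressor at D-boxes (0.17).

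Levels can be compared between genes per length, as reads per kilobase of exon, scaled to library size (RPKM). In vehicle mice the order was *Nr1d1* at 33.8 ± 5.69 (SD, n = 4), *Cry2* at 20.8 ± 0.764, *Nr1d2* at 14.0 ± 1.90, *Per1* at 13.6 ± 0.632, *Dbp* at 13.0 ± 2.08, *Clock* at 7.44 ± 0.977, *Per2* at 4.67 ± 0.278, *Arntl* at 4.05 ± 0.266, *Cry1* at 3.82 ± 0.284 and *Per3* at 2.66 ± 0.176. The highest stood at 12.7 times the lowest, and the median of all genes tested was 4.59. *Nr1d1* was above 90.6% and *Per3* above 37.1% of the genes tested. The vehicle ranges of *Nr1d1* and *Cry2* did not overlap with a neighbor, whereas those of *Nr1d2*, *Per1* and *Dbp* overlapped in this order, as did those of *Per2*, *Arntl* and *Cry1*. *Clock* lay apart from both neighbors and *Per3* from the gene above it. In corticosterone mice the order was the same but for *Cry1* (3.92 ± 0.302) and *Arntl* (3.88 ± 0.248), which changed places and overlapped. With the length of the longest transcript in place of all exons, *Nr1d1* (38.2) and *Cry2* (33.0) remained the highest, with overlapping ranges. *Dbp* (21.3) then stood above *Per1* (16.4) and *Nr1d2* (16.2), *Clock* was at 10.5, *Arntl* (7.64) stood above *Per2* (4.69), and *Per3* (4.27) and *Cry1* (4.21) were the lowest, with the highest at 9.06 times the lowest.

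**Figure D3:**
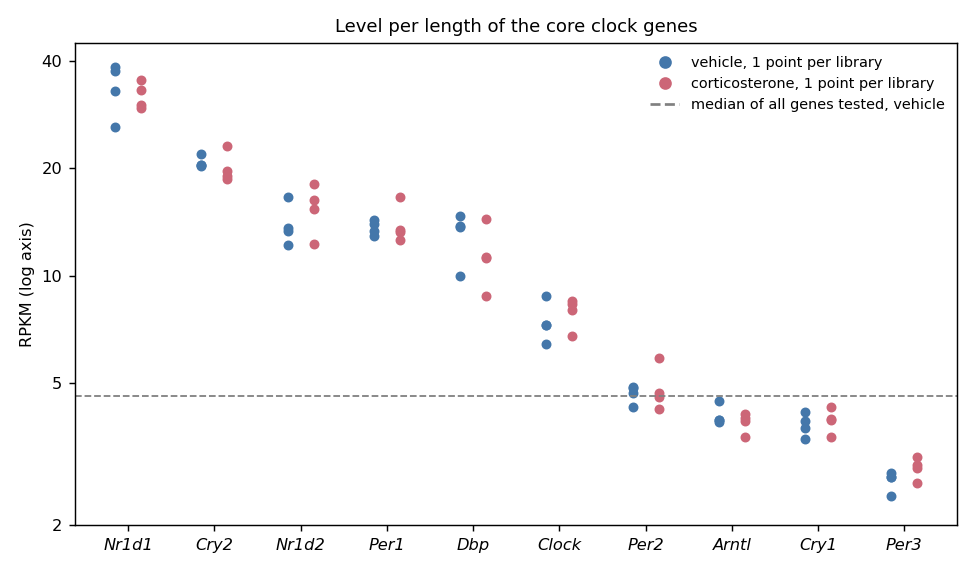
Level of the 10 core clock genes in RPKM (log axis), with each of the 8 libraries as a point, vehicle in blue and corticosterone in red, and the median of all genes tested (4.59) as a dashed line. *Nr1d1* is the highest in every library and *Per3* the lowest.

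Ratios of levels per length between clock genes were also taken within each library, a measure chosen after the values had been seen. *Per1* was at 2.92 times *Per2* in vehicle and 2.89 times in corticosterone mice (difference on the log2 scale -0.02, p = 0.771 in a two-sided exact permutation test). *Cry2* was at 5.45 times *Cry1* in vehicle and 5.11 times in corticosterone mice (difference -0.09, exact permutation p = 0.371). The repressor *Nr1d1* was at 8.24 times its target *Arntl* in vehicle mice, between 6.68 and 9.54 times in single mice, and at 8.25 times in corticosterone mice (exact permutation p = 1). With the length of the longest transcript this ratio was 4.95 and 4.96, and *Cry2* over *Cry1* was 7.85 and 7.36, since both depend on the length taken for each gene. *Nr1d1* over *Nr1d2* was 2.41 and 2.08 (exact permutation p = 0.314), with corticosterone 5 at 2.90 and the other 3 corticosterone mice between 1.82 and 1.95. *Dbp* over *Arntl* was 3.19 and 2.90 (exact permutation p = 0.543).

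The genes differed in how much they varied between mice of the same group. The standard deviation of log2 values around the group means was lowest for *Arntl* (0.093), *Per3* (0.0993), *Cry2* (0.105) and *Cry1* (0.109). It was 0.132 for *Per1*, 0.156 for *Per2*, 0.167 for *Clock*, 0.202 for *Nr1d1*, 0.214 for *Nr1d2* and 0.273 for *Dbp*. The median of all genes was 0.170, and 7 of the 10 clock genes lay below it. *Dbp* was the 1 gene above the upper quartile of 0.269, by a small margin. It was the clock gene that varied most between mice of a group, although *Per2*, *Per3*, *Cry1* and *Arntl* had fewer reads. For *Per1*, *Per2* and *Cry2* the standard deviation was larger among the corticosterone mice (0.174, 0.203 and 0.140) than among the vehicle mice (0.0671, 0.0877 and 0.0521), and corticosterone 5 was the highest mouse for all 3. Without corticosterone 5 the standard deviation over both groups fell to 0.0601 for *Per1*, 0.0827 for *Per2* and 0.0467 for *Cry2*, and without vehicle 1 it fell to 0.119 for *Nr1d1*. With the trend with base content and length removed, the order was another one, with *Cry2* (0.0471), *Clock* (0.0608), *Per1* (0.0636), *Per3* (0.0793) and *Arntl* (0.084) as the lowest, *Nr1d2* at 0.129, and *Nr1d1* (0.210) and *Dbp* (0.238) as the highest.

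Corticosterone 5 was the highest or the lowest of the corticosterone mice for 8 of the 10 genes. The share of all genes with this mouse at an end was not counted, so that this number does not set the clock genes apart. Corticosterone 5 was the highest for 6 genes, by 0.48 for *Dbp*, 0.39 for *Per2*, 0.34 for *Per1*, 0.27 for *Cry2*, 0.20 for *Nr1d1* and 0.14 for *Per3* on the log2 scale over the mean of the other 3. It was the lowest for *Nr1d2*, by -0.43, and for *Clock*, by -0.29, and lay between the others for *Arntl* and *Cry1*. This order followed the share of guanine and cytosine bases (base content) in the transcripts. The 6 genes with a higher value had 52.4% to 61.6% of these bases, *Arntl* and *Cry1* had 48.2% and 51.6%, and *Clock* and *Nr1d2* had 40.9% and 41.8%. Over all genes, the log2 value of corticosterone 5 rose by 0.198 per 10 percentage points of base content relative to the mean of the libraries. The slopes of the other corticosterone libraries lay between -0.18 and -0.13. Those of vehicle 1 to 3 were 0.055, 0.135 and 0.177, and that of vehicle 4 was -0.075. Apart from corticosterone 5 and vehicle 4, the slopes thus differed in sign between the groups.

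With the trend of each library with base content and length removed, the distance of corticosterone 5 from the other 3 became -0.05 for *Per1*, -0.01 for *Dbp*, 0.04 for *Cry2*, -0.09 for *Nr1d1*, 0.05 for *Per3* and 0.02 for *Clock*. It was 0.22 for *Per2* and -0.17 for *Nr1d2*.

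**Figure D4:**
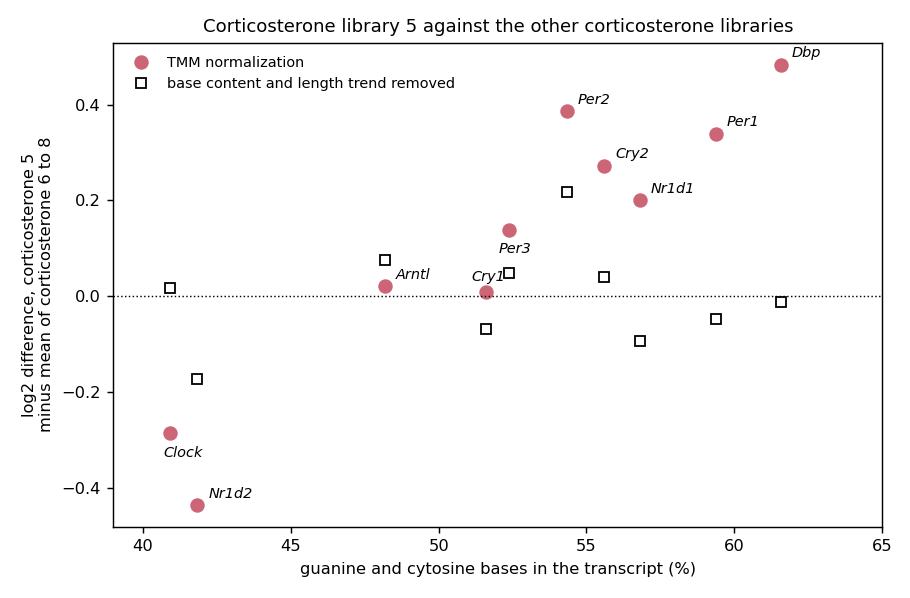
Log2 difference between corticosterone 5 and the mean of corticosterone 6 to 8 (y axis) for the 10 core clock genes against the share of guanine and cytosine bases in their transcripts (x axis, percent), with TMM normalization (filled) and with the trend with base content and length removed (open squares). The filled points run from -0.43 to 0.48 and the open squares from -0.17 to 0.22.

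The comparison of the groups was therefore repeated without corticosterone 5 and with the trend removed. Without this mouse, every corticosterone slope with base content lay below every vehicle slope. Treatment and the base content trend therefore cannot be told apart in that fit. Without corticosterone 5, *Dbp* was lower by -0.33 (95% interval -0.59 to -0.06, adjusted p = 0.101) and *Nr1d2* higher by 0.25 (0.05 to 0.45, adjusted p = 0.0981, edgeR), both at an unadjusted p under 0.05 and neither past the adjusted threshold. These are 2 of 10 clock genes, and in the same fit 29.0% of all genes had an unadjusted p under 0.05 and 10.2% passed the adjusted threshold. With each library left out in turn, *Dbp* ran from -0.33 to -0.08 (without corticosterone 6) and *Nr1d2* from 0.07 (without corticosterone 7) to 0.25. Without corticosterone 5, *Per1* was at -0.06 (-0.20 to 0.08) and *Per2* at -0.05 (-0.23 to 0.12). Of the wider list, *Rorb* (-0.46, adjusted p = 0.0321), *Nampt* (0.32, adjusted p = 0.0179) and *Rora* (0.48, adjusted p = 0.0393, edgeR) passed the adjusted threshold in this fit. With the trend removed and all 8 mice, they stood at -0.57 (adjusted p = 0.0504), 0.13 (adjusted p = 0.489) and 0.18 (adjusted p = 0.717). With the covariate of ambiguous reads described next, *Rorb* was at -0.63 (adjusted p = 0.128), while *Nampt* (0.0011, adjusted p = 0.998) and *Rora* (0.0048, adjusted p = 0.997, edgeR) were near 0.

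With the trend removed and all 8 mice, *Per1* was higher after corticosterone by 0.19 (95% interval 0.08 to 0.31, unadjusted p = 0.0026, adjusted p = 0.198, edgeR). It was the 1 core gene at an unadjusted p under 0.05 there, against 9.73% of all genes, while *Dbp* stood at -0.01 (-0.26 to 0.25) and *Nr1d2* at 0.05 (-0.11 to 0.21). The percentage of ambiguous reads was 1.64 to 1.67 in vehicle 1 to 3 and 1.25 to 1.28 in corticosterone 6 to 8. Only vehicle 4 (1.40) and corticosterone 5 (1.48) lay between, so that this measure and the treatment can hardly be told apart. With each library's percentage of ambiguous reads entered as a covariate, *Per1* was at 0.24 (0.02 to 0.47, adjusted p = 0.386), *Clock* at -0.27 (-0.47 to -0.07, adjusted p = 0.283) and *Nr1d2* at -0.31 (-0.53 to -0.10, adjusted p = 0.253, edgeR). These 3 of 10 had an unadjusted p under 0.05, against 11.7% of all genes. Without vehicle 1, the vehicle mouse with the lowest value, *Dbp* was at -0.30 (-0.60 to -0.01, adjusted p = 0.668, edgeR) and the 1 core gene at an unadjusted p under 0.05, against 7.33% of all genes. Over the 160 values of the 10 genes under 16 alternatives, 149 kept their direction and 0 had an adjusted p under 0.05.

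**Figure D5:**
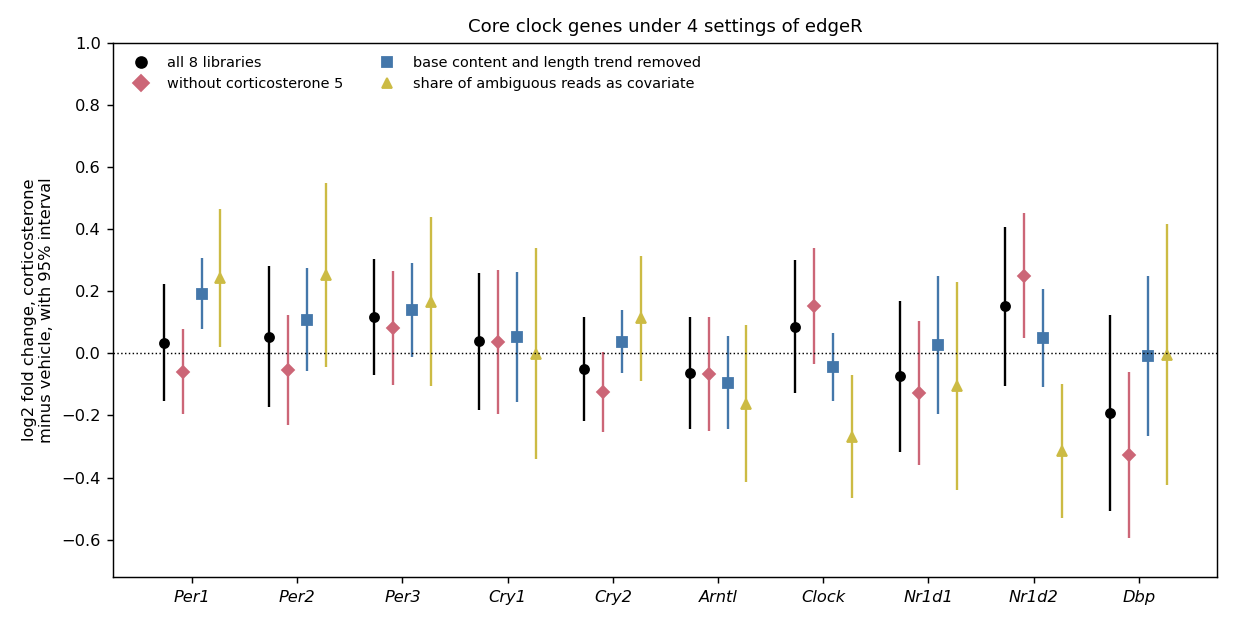
Log2 fold change of corticosterone minus vehicle (y axis, points) with 95% intervals (lines) for the 10 core clock genes, with all 8 libraries, without corticosterone 5, with the trend with base content and length removed, and with the percentage of ambiguous reads as a covariate. *Per1* lies between -0.06 and 0.24, *Nr1d2* between -0.31 and 0.25 and *Dbp* between -0.33 and -0.0048.

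Whether clock genes deviated together among the mice of a group was measured over the 8 libraries as Pearson r after the group mean had been subtracted, for all 45 pairs, with exact permutation p values over the 576 rearrangements within the groups. None of the pairs passed an adjusted p of 0.05, and the smallest was 0.156. An unadjusted exact p under 0.05 was found for 6 of the 45 pairs, and for 4 with the trend removed. *Per2* and *Per3* had r = 0.85 (exact p = 0.00347, adjusted p = 0.156) and Spearman's rho = 0.95 (exact p = 0.00694, adjusted p = 0.203). The value was 0.86 without the 2 libraries farthest from the median of *Per2*, 0.98 without corticosterone 5 and 0.81 with the trend removed. *Per2* and *Cry2* had r = 0.91 (exact p = 0.0156, adjusted p = 0.234) and rho = 0.90 (exact p = 0.0191, adjusted p = 0.203). Their r was 0.55 without the 2 farthest libraries, 0.56 without corticosterone 5 and 0.70 with the trend removed. *Per1* and *Cry2* had r = 0.95 (exact p = 0.0104, adjusted p = 0.234) and rho = 0.76 (exact p = 0.0608, adjusted p = 0.342), and r was 0.69 without the 2 farthest libraries and 0.49 with the trend removed. *Per1* and *Per2* had r = 0.81 (exact p = 0.109, adjusted p = 0.352) and rho = 0.60 (exact p = 0.151, adjusted p = 0.559). However, r was 0.06 without corticosterone 5 alone, 0.10 without the 2 farthest libraries and 0.04 with the trend removed and all 8 libraries kept, so that it was near 0 in each of these settings.

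*Nr1d1* and *Dbp*, both direct targets of BMAL1 and CLOCK, had r = 0.75 (exact p = 0.0399, adjusted p = 0.299) and rho = 0.64 (exact p = 0.109, adjusted p = 0.539). The value of r was 0.63 without the 2 farthest libraries and 0.80 with the trend removed. *Clock* and *Nr1d2* had r = 0.83 (exact p = 0.0295, adjusted p = 0.297) and rho = 0.95 (exact p = 0.0156, adjusted p = 0.203), with r = 0.57 and 0.43 in these settings. *Per1* and *Nr1d2* turned from r = -0.75 (exact p = 0.0799, adjusted p = 0.352) and rho = -0.60 (exact p = 0.12, adjusted p = 0.539) to r = 0.62 with the trend removed. For this pair r was -0.34 without corticosterone 5 and -0.09 without the 2 farthest libraries, so that it shrank there but stayed below 0. *Arntl*, which the loop places opposite to *Per1* and *Nr1d1*, had r = -0.09 with *Per1* and 0.22 with *Nr1d1* (exact p = 0.844 and 0.641, adjusted p = 0.949 and 0.901), and rho = -0.10 and 0.19 (exact p = 0.872 and 0.703, adjusted p = 0.934 and 0.859). Without the 2 farthest libraries r was -0.21 and 0.06, and with the trend removed it was 0.41 and 0.33. In all, r changed sign with the trend removed in 17 of the 45 pairs. Among them *Cry2* and *Clock* went from r = -0.52 (exact p = 0.234, adjusted p = 0.62; rho = -0.33, exact p = 0.46, adjusted p = 0.767) to 0.93 (exact p = 0.00694, adjusted p = 0.312), and *Per1* and *Clock* from r = -0.63 (exact p = 0.109, adjusted p = 0.352; rho = -0.52, exact p = 0.189, adjusted p = 0.603) to 0.56 (exact p = 0.266, adjusted p = 0.655). Without corticosterone 5 these r were 0.09 and -0.23, and without the 2 farthest libraries 0.05 and -0.32.

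By the same measure, over 8 libraries and all genes tested, the genes most like *Per1* were *Vstm2b* (r = 0.99), *Ube2o* (0.99) and *Sugp2* (0.99). For *Nr1d1* they were *Pop1* (0.98), *Kcnk9* (0.97) and *Gm9899* (0.96). For *Dbp* they were *Atcay* (0.98), *Cdk5r1* (0.97) and *Enox1* (0.97), and for *Arntl* they were *Gpr173* (0.98), *Ing2* (0.97) and *Ids* (0.97). The libraries share base content trends, and these values are given as a description. Of the core genes themselves, the nearest to *Per1* was *Cry2* at place 91 of 16017, and to *Nr1d1* it was *Dbp* at place 390. For *Dbp* it was *Nr1d1* (place 714) and for *Arntl* it was *Clock* (place 3711). The farthest core gene stood at place 13854 for *Per1* (*Nr1d2*), 9689 for *Nr1d1* (*Cry1*), 12065 for *Dbp* (*Clock*) and 12618 for *Arntl* (*Cry1*).

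Between 19214090 and 19931987 reads per library were counted on genes in the vehicle group and between 17492159 and 19776297 in the corticosterone group. Reads that did not align uniquely made up 0.0699% to 0.111% of the vehicle and 0.042% to 0.0536% of the corticosterone libraries, without overlap, and ambiguous reads, which fit more than 1 gene, made up 1.40% to 1.67% and 1.25% to 1.48%. Markers of the tissue and its cells were present, and none passed the adjusted threshold. At an unadjusted p under 0.05 in edgeR, where 724 of all 16018 genes were lower and 722 higher (9.03%), 2 of 4 microglial genes were lower, with summed normalized counts of 2737 to 2910.3 in vehicle and 1669.6 to 2488 in corticosterone mice, and 1 of 4 endothelial genes was lower (1638 to 1784 and 1393 to 1524). Likewise 1 of 5 astrocyte genes (25746 to 28263 and 24977 to 26967), 1 of 6 oligodendrocyte genes (35938 to 64589 and 38402 to 42523) and 1 of 6 genes of hippocampal fields (10343 to 13489 and 10529 to 12439) were lower. The last was the dentate gene *C1ql2*, with 1213 to 1601 normalized counts in vehicle and 881 to 1149.8 in corticosterone mice. Of 5 tested choroid plexus genes 2 were higher (412 to 1308 and 617 to 1378), with *Folr1* at 0 to 14 reads and not tested. None of 6 immediate early genes had such a p (3271 to 4916 and 2655 to 4281). The part of these differences in the clock values was not tested, and in tissue RNA fewer cells of a type and less RNA per cell cannot be told apart.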

How the data were processed

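Total RNA of 8 ventral hippocampi, 1 per mouse, was made into stranded mRNA libraries and sequenced as paired reads of 100 bases. The authors aligned the reads to mm10 (GRCm38) with GSnap and quantified genes with HTSeq-count 0.6.0. The deposited values are raw counts, with no normalization. The annotation release and the strand setting are not given in the sources used here. Groups came from the labels, and all 8 columns were used. No batch is named.

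Symbols, coordinates and exon lengths came from GENCODE M21, in which 50462 of 50686 identifiers were found. Counts were normalized with TMM and filtered with filterByExpr in edgeR 4.0.16 (R 4.3.3), and the groups were compared with its quasi-likelihood test and Benjamini-Hochberg adjustment at 0.05. DESeq2 1.42.0, limma-voom 3.58.1, other scalings and filters, the share of ambiguous reads, removal of the trend with base content and length (splines with 5 degrees of freedom) and each library left out were alternatives. Log2 values used a prior count of 2. The exact permutation test over 70 assignments of 4 against 4 cannot go below p = 0.0286. Correlations were planned as a description, and their p values were added later. The scripts were tested on simulated data. The members and lists were chosen with earlier results of these data known. Named genes were the 10 members, *Fkbp5*, the 8 wider clock genes with the smallest unadjusted p, and the 3 genes most like *Per1*, *Dbp*, *Nr1d1* and *Arntl*. *C1ql2* and *Folr1* were named after their values had been seen. With 1 mouse per library, the p values measure the spread between these mice.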

Additional observations from a re-analysis of the deposited data

Results flagged for a closer look

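In 4 of 38 groups of 4 values examined, 1 library lay far from the other 3, where about 1.9 would be flagged by chance at 1 in 20. *Cry2* had 2655 normalized counts in vehicle 3, against 2461.5 to 2478 in the other vehicle mice. *Arntl* had 642 in vehicle 4, against 562 to 567. *Rorb* had 282 in vehicle 4, against 223 to 231. *Coq10b* had 193 in corticosterone 5, against 245 to 250.1 in the other corticosterone mice.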

How the results depend on the processing

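The 10 core clock genes had no adjusted p under 0.05 in any of the 16 alternatives, and their smallest adjusted p was 0.0981. At an unadjusted p under 0.05 the number of core genes moved from 0 to 3 with the percentage of ambiguous reads as a covariate and to 1 with the trend with base content and length removed, and lay between 0 and 2 with each library left out. The wider list had between 0 and 3 genes past the adjusted threshold with each library left out (3 of 31 without corticosterone 5, where 10.2% of all genes passed). At an unadjusted p its 2 genes became 1 with the covariate (11.7% of all genes), 4 with the trend removed (9.73%) and between 1 and 8 with each library left out (8 of 31 without corticosterone 5, where it was 29.0% of all genes). Log2 fold changes turned for *Cry1* (-0.00098), *Cry2* (0.11), *Clock* (-0.27), *Nr1d2* (-0.31) and *Hlf* (-0.23) with the covariate, and for *Cry2* (0.038), *Clock* (-0.044) and *Nr1d1* (0.027) with the trend removed. With each library left out, *Per1* lay between -0.059 and 0.077, *Per2* between -0.054 and 0.11 and *Cry1* between -0.0051 and 0.082, while *Per3* (0.071 to 0.16), *Cry2* (-0.12 to -0.020), *Arntl* (-0.092 to -0.020), *Clock* (0.021 to 0.17), *Nr1d1* (-0.18 to -0.010), *Nr1d2* (0.070 to 0.25) and *Dbp* (-0.33 to -0.085) kept their direction. With the trend removed, a setting added for this measure after the data were seen, 17 of 45 correlations changed sign, of which 3 were at least 0.5 in size both ways (*Per1* with *Nr1d2* at 0.62, *Cry2* with *Clock* at 0.93 and *Per1* with *Clock* at 0.56). Without corticosterone 5 these 3 were at -0.34, 0.09 and -0.23. The causes were not tested. No paired analysis was possible because the replicate numbers of the groups are 1 to 4 and 5 to 8. With 4 mice per group, a change inside the interval given for a gene could not be resolved in the fit that gave it. The intervals do not cover the choice of setting, since *Per1* (0.24), *Clock* (-0.27) and *Nr1d2* (-0.31) lay outside them with the covariate.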
